A study of Ovis aries with 16 samples.

Results

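Of 2973 long non-coding RNAs (lncRNAs) counted in sheep liver and muscle, 71 reached the floor in 1 tissue and stayed below it in the other. The floor was a mean of 5 normalised reads over the 8 libraries of a tissue. The liver-only set held 39 lncRNAs, whose mean was at least 5 in liver and below 5 in muscle, and the muscle-only set held 32 with the reverse. Another 82 lncRNAs were above the floor in both tissues, 2820 were below it in both, and 820 had no read in any of the 16 libraries. The 8 lncRNAs set aside by name (LOC114118460, LOC105607806, LOC114112974, LOC106990385, LOC101116687, LOC105616344, LOC105606646 and GTL2) did not meet the floor rule, so their removal changed neither set. The members were selected on their mean levels in liver and muscle, so those levels are given as a description with no test. The comparison of control ewes with ewes exposed in utero to excess testosterone (prenatal T) did not enter the rule and was tested.

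The libraries came from liver and muscle of 8 female sheep, the same ewes for both tissues. Ewes 98, 131, 132 and 201 were controls, and ewes 48, 185, 233 and 255 carried the label prenatal T. The 4 groups were control liver, prenatal T liver, control muscle and prenatal T muscle, with 4 libraries each, 1 per ewe. Library numbers in the labels fall in a lower and a higher range. The lower range holds every muscle except that of ewe 255, and of the livers only those of ewes 98 and 48. Tissue and range thus largely coincide, and a part of the range in the split between liver-only and muscle-only lncRNAs was not tested. The breed, the age, the testosterone dose and the muscle sampled are not given in the labels. Small RNA libraries were made from total RNA, so a value counts short reads assigned to a lncRNA gene rather than whole transcripts.

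A lncRNA is a transcript that does not encode a protein. Some act on neighbouring genes, some serve mainly as the transcript from whose introns a small nucleolar RNA (snoRNA) or a microRNA (miRNA) is cut, and for most no role is known. Liver is largely made of hepatocytes, with bile duct epithelium, endothelium and blood cells beside them, whereas skeletal muscle is made of multinucleate fibres with vessels and connective tissue between them. In such bulk samples, fewer cells of a type and less RNA per cell cannot be told apart.

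Reads assigned to lncRNAs ran from 38399 to 124174 per liver library and from 122749 to 926854 per muscle library. The tissue labels matched the miRNA markers. The 3 liver miRNAs of the list that were in the table (MIR148A, MIR194 and MIR152) summed to between 10.8% and 15.6% of miRNA reads in livers and to at most 0.413% in muscles. MIR133, the only listed skeletal muscle miRNA in the table, made up 37.2% to 56.4% of miRNA reads in muscles and at most 0.227% in livers. A pair of libraries stood apart. Liver of ewe 98 had the highest MIR133 share of the 8 livers, against 0.0290% to 0.0639% in the other 7. Muscle of ewe 255 had the lowest MIR133 share of the muscles and the fewest lncRNA reads, so that 1 read was worth 2.44 normalised reads there.

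**Figure D1:**
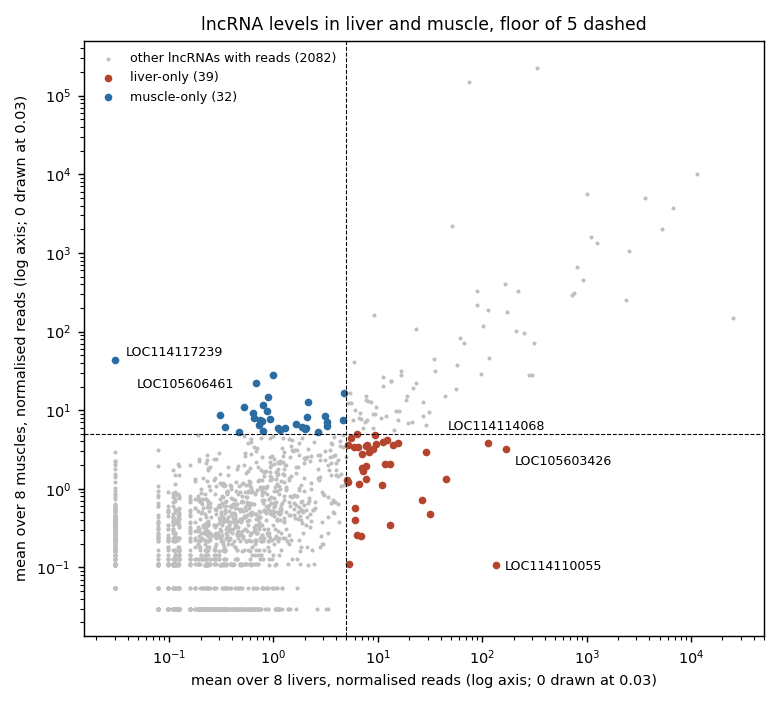
Mean normalised reads over 8 livers (horizontal) and 8 muscles (vertical), both on log axes, for each lncRNA with a read. Dashed lines mark the floor of 5. Red points are the 39 liver-only and blue points the 32 muscle-only lncRNAs; the authors scaled the tissues separately, so the axes share no scale.

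Most members lay close to the floor. The median of the members' mean levels was 7.81 normalised reads in the liver-only set and 7.44 in the muscle-only set. A mean of 10 or more was reached by 15 of 39 liver-only and 8 of 32 muscle-only lncRNAs. The liver-only set had a few high members: LOC105603426, LOC114110055 and LOC114114068 together held 51.1% of its summed signal, whereas the top 3 of the muscle-only set held 28.8%. These levels count reads and are not divided by transcript length, so they do not rank the lncRNAs by number of molecules. All 8 libraries of the tissue had reads for 33 of 39 liver-only and 25 of 32 muscle-only members. The just-included liver-only lncRNAs were LOC105615677 (mean 5.02), LOC105607667 (5.15) and LOC114117764 (5.21), and those just below the floor were LOC114114025 (4.96), LOC114112907 (4.71) and LOC114111489 (4.64). In muscle, LOC114118734 (5.26), LOC105602588 (5.28) and LOC114110856 (5.48) were just inside, and LOC105603285 (4.86), LOC114110476 (4.77) and LOC105602307 (4.71) just outside.

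Being below the floor in the other tissue did not mean that no reads were seen there. LOC114117239, in the muscle-only set, was the only member with no read at all in the other tissue. With the recovered reads of all 16 libraries scaled jointly, which puts both tissues on a common scale, the median ratio of liver to muscle was 3.51 over the 33 liver-only members with more than 3 muscle reads. The median ratio of muscle to liver was 7.51 over the 29 muscle-only members with more than 3 liver reads. Under that scaling 8 of these liver-only members differed by less than 2-fold, down to 1.09-fold for LOC114114830 and LOC105602359. In the muscle-only set 1 member, LOC105602999, was under 2-fold, at 1.81. Joint scaling left 33 of the 39 liver-only lncRNAs and all 32 muscle-only lncRNAs in their sets. Scaling to the total reads of the 4 RNA classes, another common scale, left 36 and 24, since 8 muscle-only lncRNAs then lay above the floor in liver, so these ratios depend on the scaling.

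**Figure D2:**
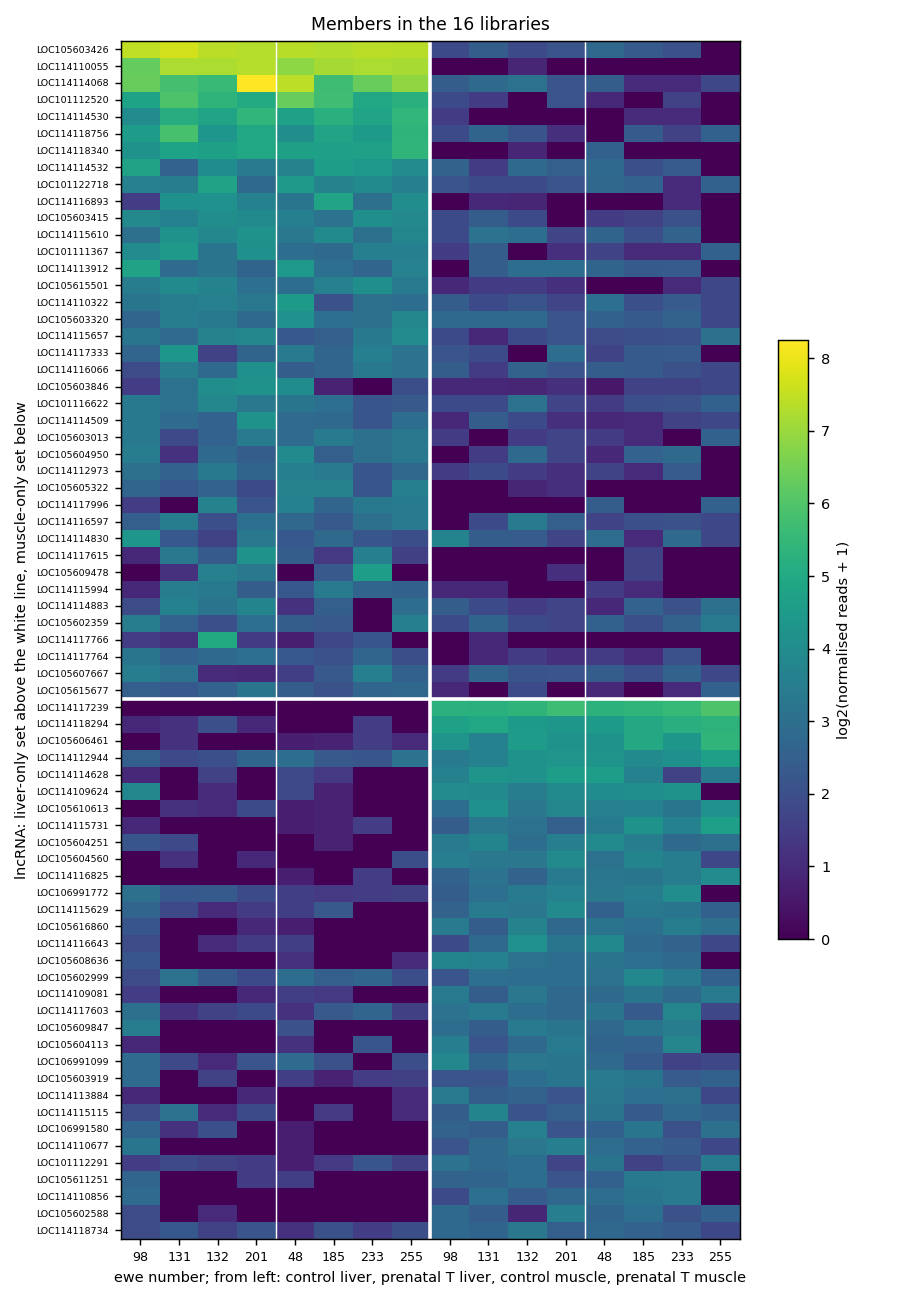
Normalised reads of the 71 members in the 16 libraries, as log2(normalised reads + 1). Rows are lncRNAs ordered by mean level within each set, columns are ewes within control liver, prenatal T liver, control muscle and prenatal T muscle. The liver-only rows are bright on the left and the muscle-only rows on the right; the left column of muscle-only rows, liver of ewe 98, is lighter than the other livers.

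LOC105603426 had the highest level of the liver-only set and the steadiest among its high members. In the RefSeq gene table of assembly ARS-UI_Ramb_v3.0 its span overlaps BHLHE40, which encodes a transcriptional repressor tied to the circadian clock, and ITPR1, which encodes a calcium channel of the endoplasmic reticulum. Control livers had 173, 205, 166 and 159 normalised reads and prenatal T livers 165, 155, 169 and 163. Muscles had 0 to 5.78. The coefficient of variation over the 8 livers was 9.04%. The chi-square of its 1415 reads against a constant share was 1.10 per degree of freedom, where 1 is what counting reads alone would give. The joint ratio of liver to muscle was 45.6.

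LOC114110055 lies next to PLSCR4, which encodes a phospholipid scramblase. It had 77.9, 149, 149 and 160.3 normalised reads in control livers and 113.9, 140.3, 151 and 142 in prenatal T livers. Over all 8 muscles it had 1 read, against 1121 in liver. Liver of ewe 98 was the lowest, below every prenatal T liver, and the other 3 control livers lay between 149 and 160.3.

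LOC114114068 varied widely across ewes, with a coefficient of variation of 77.7%. It is not among the genes of the RefSeq table. Control livers had 78.9, 54.7, 46.0 and 303 normalised reads, the highest in ewe 201, and prenatal T livers had 171, 50.2, 79.9 and 117.1. Its chi-square per degree of freedom, a measure that grows with the number of reads, was 78.5, the highest of the 71 members; by coefficient of variation LOC114117766 was the highest, at 197%. Its reads followed those of MIR200C, a miRNA of epithelial cells, almost one for one. In the livers of ewes 98, 131, 132, 201, 48, 185, 233 and 255 the lncRNA had 86, 43, 46, 344, 270, 64, 44 and 120 reads, which exceeded the MIR200C reads by 0, 0, 3, 5, 9, 2, 3 and 8. Over the 16 libraries the totals were 1054 and 1022, and the counts were equal in 8 libraries. The lncRNA count was never below that of the miRNA. Ewe 201 also had the highest liver shares of MIR200A and MIR200B, 0.231% and 0.760% of miRNA reads, against at most 0.197% and 0.590% in the other 7 livers. Whether 1 set of reads was counted under both names was not tested.

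A search of the miRNA, snoRNA and small nuclear RNA (snRNA) tables for the feature with the most similar reads was added after the data had been seen. Mismatch was the summed absolute difference of reads over the 16 libraries, as a percent of the reads of both features. It was under 10% for 3 of the 71 members, all liver-only, and for 12 of the 82 lncRNAs above the floor in both tissues. The next lowest mismatch among members was 12.8% and the median 20.8%. Besides LOC114114068 with MIR200C, at 1.54%, the close pairs were lncRNAs with a snoRNA inside their span. LOC114118756, between TAS2R1 and SEMA5A, and the snoRNA LOC114118772 had 234 and 229 liver reads, with equal counts in 12 of 16 libraries. LOC114114532, between CCM2 and MYO1G, and the snoRNA LOC114114650 had 133 and 121 liver reads, with equal counts in 7 of 16. LOC105603013, which overlaps the imprinted ubiquitin ligase gene UBE3A, was not among the close pairs. Its most similar feature was a snoRNA other than the one inside it, LOC114117089, with a mismatch of 18.2%. It had 63 liver reads beside 43 of the snoRNA LOC114109255 inside it, with equal counts in 5 of 16 libraries. In none of these pairs, LOC105603013 and LOC114109255 included, did the lncRNA have fewer reads than the small RNA in any library. LOC106991099, in the muscle-only set, holds MIR29A but had 59 muscle reads against 15590 of that miRNA. In liver the lncRNA had 31 reads and MIR29A 34570. The other 4 members with a small RNA gene inside had no such match. The small RNAs inside LOC105602999, LOC114116893 and LOC114118734 had 0 reads in the tissue of detection, and the snRNA inside LOC114109624 had 1 muscle read against 124.

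The other high liver-only members had lower levels. LOC101112520, listed in RefSeq as KIAA1586 between ZNF451 and BEND6, had a mean of 44.7 ± 18.6 normalised reads (SD, n = 8), from 26.6 in ewe 98 to 80.4 in ewe 48. LOC114114530, which is not in the RefSeq table, had 31.3 ± 9.58, and LOC114118340, between MS4A13 and NCAPD3, 26.7 ± 6.65. Their muscle means were 0.474 and 0.718. LOC114116893, which overlaps SSH2, a gene for a phosphatase that activates cofilin, had 13.2 ± 7.81 in liver and 3 reads in all muscles. LOC101122718, next to ERICH4, had 13.9 ± 6.47 in liver and 3.62 in muscle. Several members near the floor rested on few ewes. LOC114117766 had 73.0% of its summed liver signal in ewe 132, and LOC105609478, which overlaps the gene of the stress-response transcription factor ATF4, had 48.6% of it in ewe 233. Of the liver-only members, 24 of 39 had a chi-square per degree of freedom over 2, with a median of 2.54. In the muscle-only set 4 of 32 did, with a median of 1.19.

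In the muscle-only set, LOC114117239 had the highest level. Control muscles had 37.5, 36.9, 40.3 and 51.1 normalised reads and prenatal T muscles 38.7, 40.8, 45.3 and 61.1. It had 372 reads in muscle and 0 in liver, where 3 reads over the 8 livers is the limit that a count of 0 allows. On the joint scale muscle was at least 140.3-fold higher. It is not in the RefSeq table, nor is LOC114118294, which followed with 27.8 ± 6.94 in muscle and 0.986 in liver. LOC105606461 overlaps MFN2, which encodes a protein of mitochondrial fusion, and PLOD1, which encodes a collagen lysyl hydroxylase. It had 22.3 ± 9.49 normalised reads in muscle and 0.685 in liver. LOC114112944 was the high member closest to the floor in the other tissue, with 16.4 ± 4.64 in muscle and 4.72 in liver. The remaining members of the top 10 were LOC114114628 (14.7), LOC114109624 (12.8), LOC105610613 (11.6), LOC114115731 (11.1), LOC105604251 (9.64) and LOC105604560 (9.29). LOC105604251 overlaps PAX2, a developmental transcription factor gene, and LOC105604560 overlaps the kinase gene ALPK2 and is listed as protein-coding in RefSeq.

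In liver, reads of the muscle-only set were most abundant in 1 library. Summed over the 32 members, livers of ewes 98, 131, 132 and 201 had 119, 43.2, 34.0 and 37.0 normalised reads, and those of ewes 48, 185, 233 and 255 had 49.99, 35.3, 34.5 and 31.2. The sum in liver of ewe 98 lay above the other 7, and 27 of the 32 members had a read there. The livers of ewes 98 and 48, the only livers in the lower range of library numbers, had the highest sums, at 119 and 49.99. Whether the range had a part in these sums was not tested. Of the 31 members with any liver read, 16 had their highest liver value in ewe 98. The mean sum in control liver was 58.4 ± 40.7 (SD, n = 4) with this library and 38.1 ± 4.70 (n = 3) without it. MIR133 moved with it, at 0.227% of miRNA reads in that liver, and its part in the result was not tested. LOC114109624 had 12.8 normalised reads in this liver and at most 2.53 in any other. LOC114110856, which overlaps the proteoglycan gene SPOCK2, had 6.42 there and no read in the other 7 livers. Without liver of ewe 98, 4 more lncRNAs entered the muscle-only set: LOC105603432, LOC105605573, LOC114111256 and LOC114111513. LOC105603432 had a muscle mean of 41.5 and 23.8 normalised reads in this liver, against at most 6.33 in the others. The liver-only members LOC105602359, LOC105607667, LOC114114830 and LOC114117764 left their set.

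**Figure D3:**
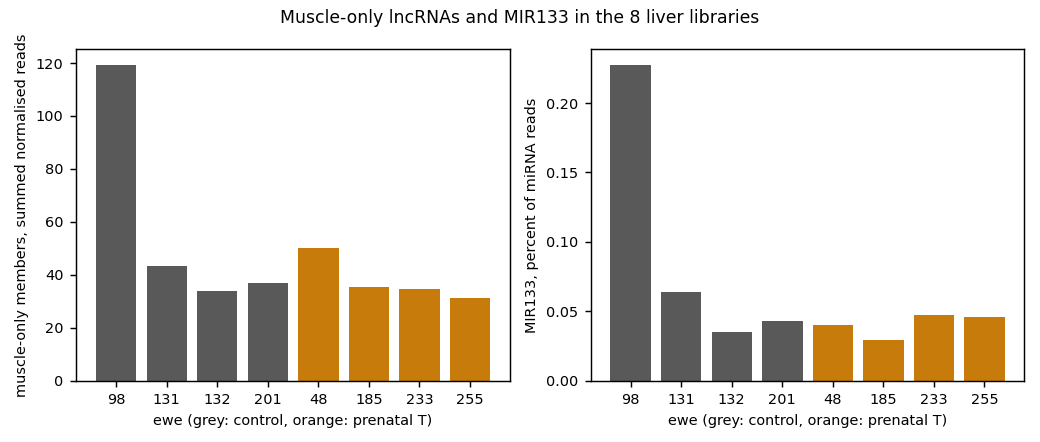
Left, summed normalised reads of the 32 muscle-only lncRNAs in each of the 8 livers; right, MIR133 as a percent of miRNA reads in the same livers. Bars are single libraries, grey for control and orange for prenatal T; liver of ewe 98 is the highest in both panels, at 119 normalised reads and 0.227%.

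The muscle of ewe 255 had zeros that no other muscle had. Of the 32 muscle-only members, 7 had no read there, while none was at 0 in any of the other 7 muscles. Its 129 reads over the set compare with 295 to 756 in the others. LOC114109624, with an snRNA gene inside its span, had 14.8, 14.1, 10.3 and 13.9 normalised reads in control muscles, 15.1, 16.3 and 17.5 in the prenatal T muscles of ewes 48, 185 and 233, and 0 in that of ewe 255.

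By annotation, members did not share 1 kind of gene. The RefSeq table listed 38 of the 71 (53.5%), 21 liver-only and 17 muscle-only, against 47.2% of all 2973 lncRNAs. RefSeq gave 34 of the 38 as lncRNAs and 4 as protein-coding, namely LOC101116622, LOC105604560, LOC114114509 and LOC114117764. Of the 38 listed, 17 (44.7%) overlapped a protein-coding gene, against 36.7% of all listed lncRNAs and 30.2% of those above the floor in both tissues. A small RNA gene lay inside the span of 8 of 38 (21.1%), against 48.8% of the listed lncRNAs above the floor in both tissues and 6.20% of all listed ones. Overlapped genes of the liver-only set included ATF3, a stress-response transcription factor gene (LOC105607667), and THUMPD3, a tRNA methyltransferase gene (LOC105603415). In the muscle-only set they included LTBP3, which encodes a binding protein of latent TGF-beta (LOC105604113), and TMTC4, a mannosyltransferase gene (LOC114116643). Whether the authors counted by strand is not given in the sources used here, so reads of a lncRNA and of a gene overlapping it cannot be told apart. None of the 39 widely studied lncRNAs looked for by name, such as H19, MALAT1 and NEAT1, was matched in the table. This search could miss a lncRNA listed under another name, as with GTL2, a name used for MEG3. It therefore does not show that such lncRNAs were absent.

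In liver, none of the 39 liver-only lncRNAs was called as different between control and prenatal T ewes. No member passed the threshold of 0.05 after Benjamini-Hochberg adjustment in limma over all 121 lncRNAs above the floor in liver, where the background was 0%. The smallest adjusted p was 0.890. No member, and none of the 121, reached an unadjusted p under 0.05 in limma (0%), and in none did the groups fail to overlap (0%). Tests of the recovered reads in edgeR and DESeq2 also called 0 members, and 0 of all 121, after adjustment. In each, 1 member had an unadjusted p under 0.05, a count not made over all 121 there. Of the 39, 20 had a higher and 19 a lower mean log2 level after prenatal T. The median log2 fold change was 0.0080, against -0.081 over all 121 lncRNAs. With reads scaled to the 4 RNA classes the split was 13 higher and 26 lower. Within the higher range of library numbers, with 3 control and 3 prenatal T livers, 0 of 35 members tested were called in limma. Of all lncRNAs tested in these livers, limma also called 0. An unadjusted p under 0.05 was reached there by 1 member in limma, a count not made over all lncRNAs. The median half-width of the 95% interval was 1.003 on the log2 scale, and for 6 of 39 the interval lay within 2-fold in both directions. Summed over the set, the liver-only lncRNAs made up 1.27% ± 0.184 (SD, n = 4) of lncRNA reads in control liver and 1.08% ± 0.104 in prenatal T liver.

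**Figure D4:**
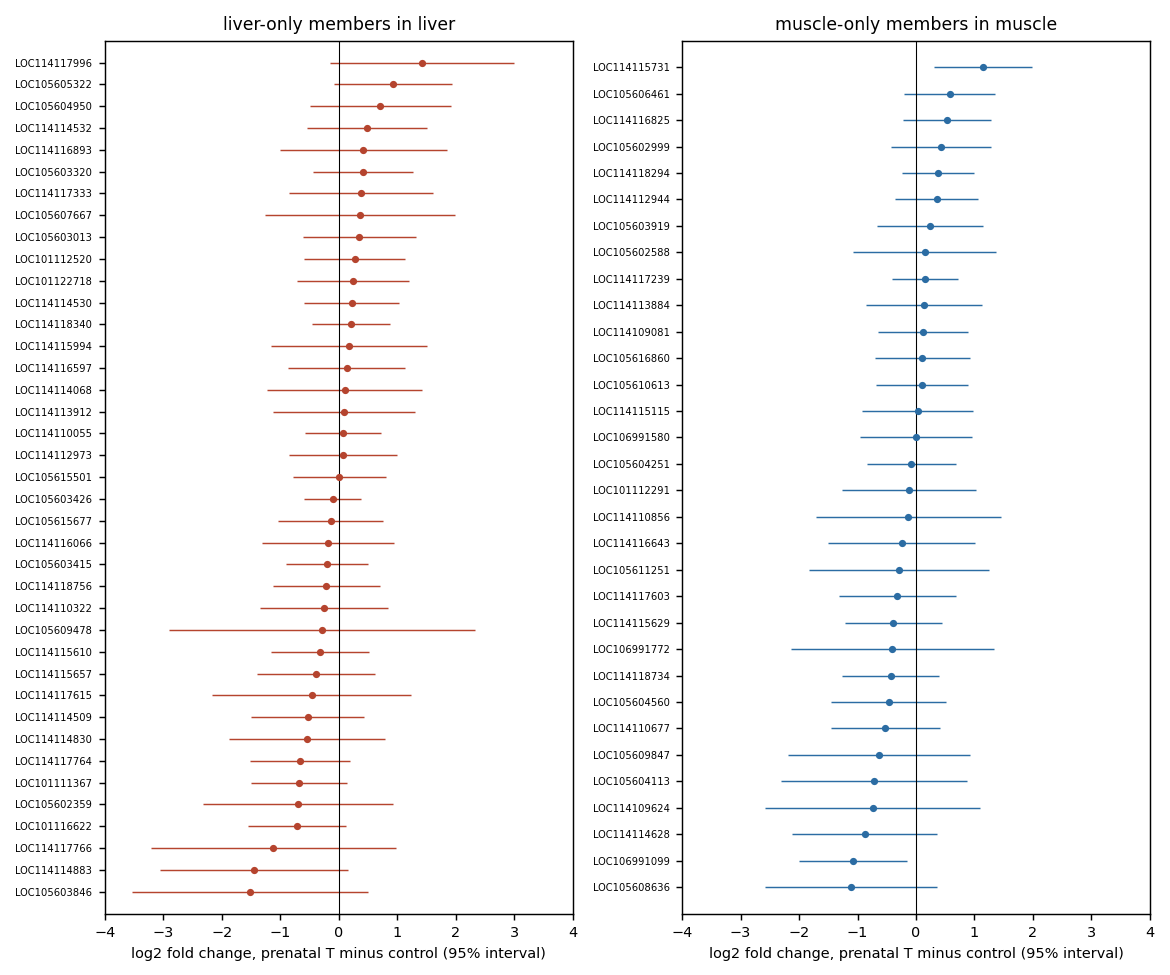
Log2 fold change (prenatal T minus control, on log2(normalised reads + 1)) of each liver-only lncRNA in liver and each muscle-only lncRNA in muscle, from limma with 4 ewes per group. Points are estimates and bars unadjusted 95% intervals; all 39 intervals in liver and 30 of 32 in muscle include 0.

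Among the liver-only members with the smallest p, LOC105605322 had 5.502, 3.82, 5.004 and 2.64 normalised reads in control livers and 12.0, 11.8, 3.63 and 10.7 in prenatal T livers. The 3 prenatal T ewes other than ewe 233 were above all controls. Its log2 fold change was 0.93 ± 0.450 (SE), with an adjusted p of 0.890 in limma. LOC101116622, listed in RefSeq as the protein-coding gene FLYWCH2, had 9.17, 7.63, 13.0 and 8.81 in control livers and 8.23, 7.06, 3.63 and 3.90 in prenatal T livers. The groups overlapped at the value of ewe 48, and the log2 fold change was -0.71 ± 0.378. LOC101111367 had 14.7, 20.3, 8.01 and 16.7 in controls and 6.96, 6.27, 10.9 and 10.7 in prenatal T livers. Control ewe 132 fell inside the range of the exposed ewes, and the log2 fold change was -0.68 ± 0.368. LOC114117764, listed in RefSeq as protein-coding, lies next to PRODH2, which encodes an enzyme of hydroxyproline breakdown. It had 8.25, 5.09, 6.004 and 7.04 in controls and 3.80, 3.14, 5.45 and 2.93 in prenatal T livers. Ewe 233 alone overlapped with the controls here, and the log2 fold change was -0.66 ± 0.386.

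The largest estimates in liver belonged to members with reads at or near 0 in some ewes. LOC105603846 overlaps STMND1 and had 1.83, 7.63, 16.0 and 17.6 normalised reads in control livers and 15.2, 0.784, 0 and 2.93 in prenatal T livers. Both groups held high and low values, and the low control (ewe 98) and the high prenatal T liver (ewe 48) are the 2 livers of the lower range of library numbers. Within the higher range the 3 controls had 7.63 or more and the 3 prenatal T livers 2.93 or less, and the log2 fold change was -2.87, with an adjusted p of 0.187 in limma. Over all 8 livers it was -1.52 ± 0.907, and it moved to -2.29 without ewe 48, to -0.95 without ewe 233 and to -0.997 in edgeR. LOC114114883 had 2.75, 11.4, 8.01 and 12.3 in controls and 1.27, 4.70, 0 and 6.83 in prenatal T livers. Its estimate was -1.45 ± 0.720, and -0.89 without ewe 233, the library with no read. LOC114117996 had 1.83, 0, 12.0 and 3.52 in controls and 11.4, 5.49, 9.08 and 9.76 in prenatal T livers. Control ewe 132 was above all exposed ewes, and the estimate of 1.43 ± 0.709 moved to 0.81 without control ewe 131. The adjusted p of each of these was 0.890 in limma.

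In muscle, no muscle-only lncRNA passed the adjusted threshold in limma either, against 4 of all lncRNAs above the floor there (3.51%). An unadjusted p under 0.05 was reached by 2 of 32 members and by 6.14% of all lncRNAs tested, so the members' share of 6.25% was near the background. The groups did not overlap for 1 member, LOC114115731, with prenatal T higher (background 0.877%), and for none with prenatal T lower (background 4.39%). edgeR called 0 members, against 4 of all lncRNAs tested, and DESeq2 called 0 members, against 5 of all. In each, 1 member had an unadjusted p under 0.05, a count not made over all lncRNAs there. Of the 32, 15 had a higher and 17 a lower mean log2 level after prenatal T. The median log2 fold change was -0.096, against -0.069 over all lncRNAs above the floor in muscle. On recovered reads the split was 23 higher and 9 lower in edgeR and 20 and 12 in DESeq2. The median over all lncRNAs tested was 0.099 and 0.054 there. In muscle only ewe 255 had a library number in the higher range. Without it limma called 0 members, against 4 of all 121 lncRNAs tested. It gave 2 members an unadjusted p under 0.05, with no such count over all lncRNAs. Of the members, 21 had a higher and 11 a lower level. The median half-width of the 95% interval was 0.941, and for 8 of 32 it lay within 2-fold in both directions. The set made up 0.0770% ± 0.00620 of lncRNA reads in control muscle and 0.0824% ± 0.0158 in prenatal T muscle. As a share of lncRNA reads its mean in control liver was 0.0976% ± 0.0879, not lower than in muscle only through 0.229% in ewe 98. The livers of control ewes 131, 132 and 201 had 0.0561%, 0.0510% and 0.0537%, below the lowest muscle, at 0.0704%. In prenatal T liver the share was 0.0510% ± 0.00864.

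**Figure D5:**
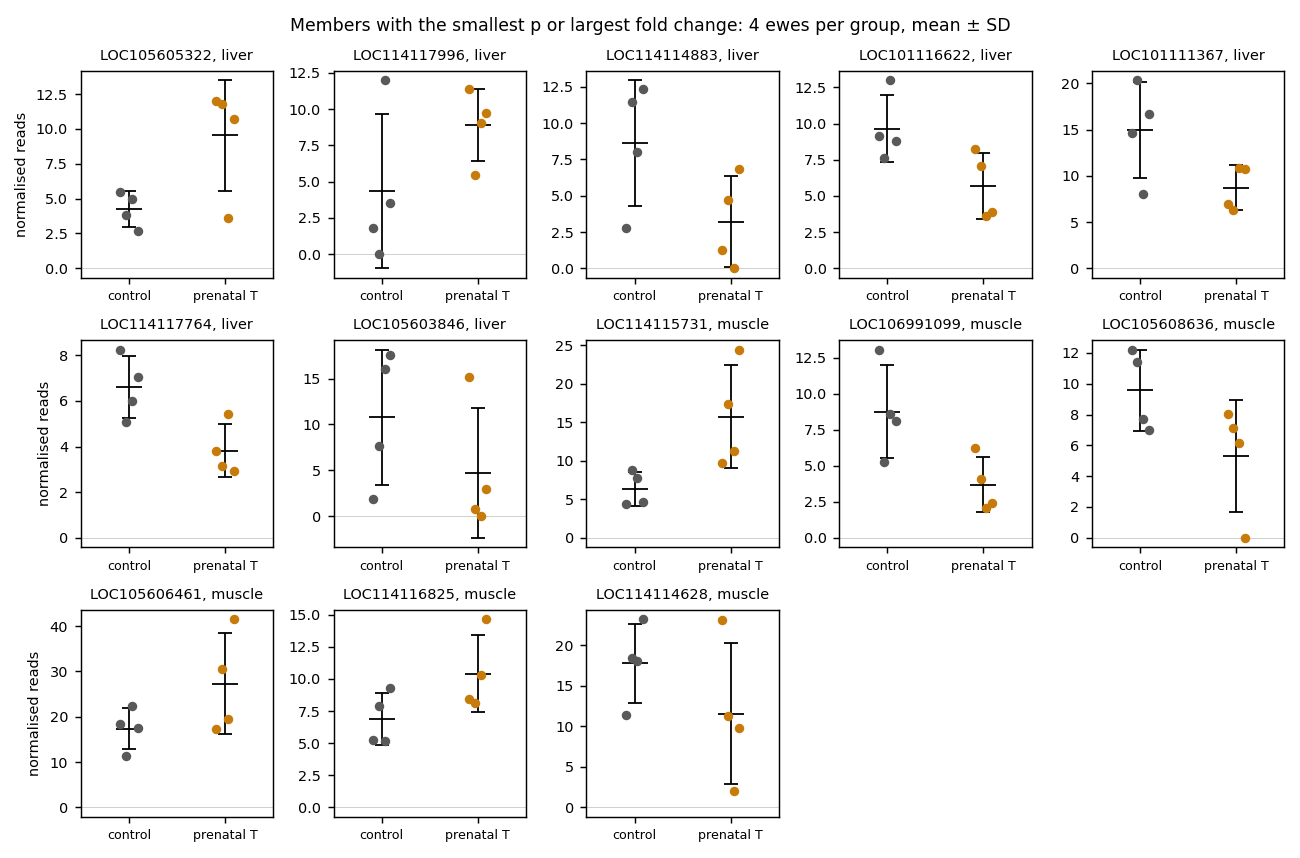
Normalised reads of the 7 liver-only and 6 muscle-only lncRNAs with the smallest p or the largest fold change, in the 4 control (grey) and 4 prenatal T (orange) ewes. Crosses are means with SD; the groups overlap in every panel except LOC114115731 in muscle.

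LOC114115731, which is not in the RefSeq table, had 4.36, 8.80, 7.72 and 4.64 normalised reads in control muscles and 9.78, 17.3, 11.3 and 24.4 in prenatal T muscles. Every exposed ewe was above every control. The log2 fold change was 1.15 ± 0.379 with a 95% interval of 0.31 to 1.99 before adjustment, and the adjusted p was 0.235 in limma. The highest value was in ewe 255, and without that library the estimate was 0.92, with an adjusted p of 0.420 in limma.

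LOC106991099 holds the gene of MIR29A, a miRNA known to target collagen transcripts. It had 13.1, 5.28, 8.58 and 8.12 normalised reads in control muscles and 6.22, 4.08, 2.06 and 2.44 in prenatal T muscles. Ewe 48 lay above control ewe 131, and the other 3 exposed ewes lay below all controls. Its log2 fold change was -1.08 ± 0.414, with an adjusted p of 0.416 in limma. It rested on 59 reads over 8 muscles.

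For 3 of the other 4 muscle-only members with small p-values, leaving out 1 library moved the estimate by more than 1.5 times, and for LOC105608636 and LOC114114628 so did the tests on recovered reads with all libraries kept. LOC105608636 had 12.2, 11.4, 7.72 and 6.96 in control muscles and 8.00, 7.14, 6.18 and 0 in prenatal T muscles, the last in ewe 255. Its log2 fold change was -1.11 ± 0.663, -0.36 without that ewe, -0.51 in edgeR and -0.54 in DESeq2. LOC105606461, over MFN2 and PLOD1, had 18.3, 11.4, 22.3 and 17.4 in controls and 17.3, 30.6, 19.6 and 41.6 in prenatal T muscles. The groups overlapped, and the estimate of 0.57 ± 0.349 moved to 0.35 without ewe 255. LOC114114628 had 11.3, 18.5, 18.01 and 23.2 in controls and 23.1, 11.2, 2.06 and 9.78 in prenatal T muscles. Its estimate was -0.88 ± 0.558, -0.31 without ewe 233, -0.34 in edgeR and -0.45 in DESeq2. LOC114116825 had 5.23, 7.92, 5.15 and 9.29 in controls and 8.44, 8.16, 10.3 and 14.7 in prenatal T muscles, with a log2 fold change of 0.53 ± 0.336. The adjusted p of these 4 was 0.775 in limma.

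The effect of prenatal T was also compared between tissues on jointly scaled reads. Of the 153 lncRNAs above the floor in at least 1 tissue, limma called 0 after adjustment (0%), and 2 of 71 members had an unadjusted p under 0.05, against 4.58% of the 153. They were LOC105605322, with a liver effect larger by 1.48 ± 0.609 on the log2 scale, and LOC114118294, with a difference of -1.25 ± 0.530. Both had an adjusted p of 0.909 in limma, and both were below the floor in the other tissue, with 2 and 7 reads there. On the deposited values their effects in the tissue of detection were 0.93 and 0.38.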

How the data were processed

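Per the submitters' processing notes, cutadapt 3.2, STAR 2.6.0c and featureCounts 1.6.1 were used; neither their roles and settings nor a genome build is stated there. Each deposited value is a normalised signal: the authors divided the reads of a library by 1 size factor, set within RNA class and tissue. Whole reads were recovered for 100% of the 10585 lncRNA values above 0, within 0.001 reads. Libraries held 250251 to 887739 reads of 4 RNA classes in liver and 239871 to 1819374 in muscle, and intervals from reads cover counting error only.

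Control and prenatal T libraries were compared with limma 3.58.1 in R 4.3.3 (variance trend) on log2(value + 1), for lncRNAs with a mean of at least 5, so every member was tested; Benjamini-Hochberg adjustment ran over all of them. Adding 1 damps changes of low lncRNAs. Where a library had few or no reads, estimates on this scale could also exceed those from recovered reads. P-values measure the spread between 4 ewes per group. Recovered reads were tested with edgeR 4.0.16 (quasi-likelihood) and DESeq2 1.42.0. Liver and muscle of 1 ewe were paired by the ewe number in the labels; within a tissue the groups hold different ewes.

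Named were, per set, the 10 highest members, the 6 with the smallest p and 3 with the largest fold change, those nearest the floor, and members with no read in the other tissue; others were chosen after their values were seen. The members and lists were chosen with earlier results of these data known. Gene names and neighbours come from RefSeq (ARS-UI_Ramb_v3.0), without coordinates, because the files name no build. Sequences were not used here.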

Additional observations from a re-analysis of the deposited data

Results flagged for a closer look

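In groups of 4 libraries, 8 of the 82 groups looked at had a value far from the other 3. Distance was the gap to the nearest of them as a share of the group's range. For independent, normally distributed values chance gives about 1 in 20. These values come from read counts and many groups share the same libraries, so no excess over that rate can be read from the 8. Among liver-only lncRNAs, LOC114110055 had 77.9 normalised reads in control liver of ewe 98, against 149 to 160.3 in the other controls. LOC114114068 had 303 in control liver of ewe 201, against 46.0 to 78.9, and MIR200C was also highest there. LOC114118340 had 41.0 in prenatal T liver of ewe 255, where the other 3 had 24.3 to 25.4. LOC105605322 had 3.63 in prenatal T liver of ewe 233, below the 10.7 to 12.0 of the others. LOC114109624 had 0 in prenatal T muscle of ewe 255, against 15.1 to 17.5.

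Liver of ewe 98 stood apart again, with a summed muscle-only signal of 119 normalised reads and a MIR133 share of 0.227% of miRNA reads. In muscle of ewe 255 MIR133 made up 37.2% of miRNA reads, against 53.5% to 56.4% in the other prenatal T muscles.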

How the results depend on the processing

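The number of members depended on the scaling and the floor. Scaling to the total reads of the 4 RNA classes gave 100 liver-only lncRNAs in place of 39. The muscle-only set held 52 lncRNAs at a floor of 3 and 19 at a floor of 10, in place of 32. Of its members, 27 and 8 kept their set. The liver-only set held 55 and 26, and 23 and 15 of its 39 members kept their set. At a floor of 3, 16 liver-only members lay above it in muscle, among them LOC105603426 and LOC114114068. LOC114114068 also left the set when means were taken over control libraries only. Leaving out each library in turn gave 36 to 41 liver-only and 31 to 37 muscle-only lncRNAs. Under all 22 alternatives 9 and 6 members kept their set.

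No member was called for prenatal T in either tissue under any alternative run (0 to 0 when libraries were left out in turn). Among all lncRNAs tested, these runs called 0 in liver and 0 to 5 in muscle. In liver the smallest adjusted p of a member was 0.187 in limma, for LOC105603846. It came from the 3 control and 3 prenatal T livers of the higher range of library numbers. In muscle the smallest was 0.125, for LOC114115731 in DESeq2. All 242 values of the 13 lncRNAs named for their effect kept their direction. They were picked for these effects in the same data, and some settings, such as no variance trend, leave the estimate unchanged by construction. The count is therefore no independent support. A pseudocount of 5, which damps low values by construction, brought 8 of these effects to between 0.499 and 0.659 of their size. With the ewe as a replicate block, pairing the tissues, 0 members differed between tissues, as without it, and the block changed no other call. The balance of directions among members, none of them called, moved. It was 13 higher and 26 lower in liver with scaling to the 4 classes, where the median of all lncRNAs was -0.29 against -0.081, 14 and 21 without control liver 98, and 13 and 22 within the higher range of library numbers. In muscle it was 23 and 9 in edgeR, 20 and 12 in DESeq2, and 21 and 11 without ewe 255. The median of all lncRNAs tested in muscle was then 0.099, 0.054 and -0.039, against -0.069 in the main fit. Members held 38 to 1415 reads over 8 livers or 46 to 372 over 8 muscles, with medians of 67 and 68.5, which limits the precision of every change given.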
